A study of Mus musculus with 6 samples.

Results

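The genes described here encode 45 enzymes that make, remodel and break down glycerophospholipids, the main lipids of cell membranes. They were chosen by name, as 8 groups of pathway steps, and their counts were taken by Ensembl identifier from the 60354 features of each mouse. All 45 were found, and 43 had enough counts for the test between diets. Whole brains were taken from male C57BL/6NCrSlc mice that were 16 weeks old when the diets began and had then completed a series of behavioral tests. The PLDP mice (3 mice, numbers 17, 22 and 26) had for 16 weeks eaten modified AIN-93M of which 20% was PLDP. PLDP is a porcine liver product made with protease, and phosphatidylcholine is the most abundant phospholipid listed for it. The control mice (3 mice, numbers 2, 5 and 10) had eaten modified AIN-93M with its calories adjusted for the same 16 weeks. The PLDP diet was not given during the behavioral tests, so the RNA, taken on the day after them, does not describe mice that were still eating it. The measurements are of RNA from a whole brain, in which fewer cells of a type and less RNA per cell cannot be told apart.

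Phosphatidylcholine and phosphatidylethanolamine are made in the brain mainly through the Kennedy pathway, in which choline or ethanolamine is phosphorylated, activated with cytidine and joined to diacylglycerol. Phosphatidylserine is then formed from these lipids by base exchange, and lysophospholipid acyltransferases and phospholipases continually replace the fatty acids of the finished lipids. Ether-linked ethanolamine lipids, the plasmalogens, start in peroxisomes and are especially rich in myelin.

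Most phospholipid enzyme genes differed little between the diets. At an unadjusted p under 0.05 in edgeR's quasi-likelihood test, 1 of the 43 tested genes was higher in the PLDP mice (Agpat1) and 2 were lower (Pcyt1a and Gpcpd1). This is 6.98% of the tested genes, against 8.60% of all 18580 features tested, so the number of genes called was not above the background of this comparison. By direction, the background was 4.91% higher and 3.69% lower. After Benjamini-Hochberg adjustment over all features, 0 of the 43 passed 0.05, as against 6 features in all (0.0323%), a number that leaving out 1 mouse moved to between 0 (without control mouse 5) and 182 (without PLDP mouse 17). The smallest adjusted p among the enzymes was 0.273. The estimates were higher in the PLDP mice for 19 genes and lower for 24. Their median log2 fold change was -0.0082, with -0.00062 over all features tested.

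The precision was sufficient to bound most of these differences. In 36 of the 43 genes, or 83.7%, the whole 95% interval of the log2 fold change lay between a 1.25-fold fall and a 1.25-fold rise. The share was 58.0% over all features, whose median level was lower (16.8 against 50.1 CPM for the tested enzymes, CPM being counts scaled to library size with TMM factors). The 7 exceptions were Pemt, Lpcat2, Mboat1, Agpat2, Lpin3, Crls1 and Tmem189, each with a mean level under 12 CPM. For Tmem189 the interval reached from a 2-fold fall to a log2 fold change of 0.49, so these data bound its difference only loosely.

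**Figure D1:**
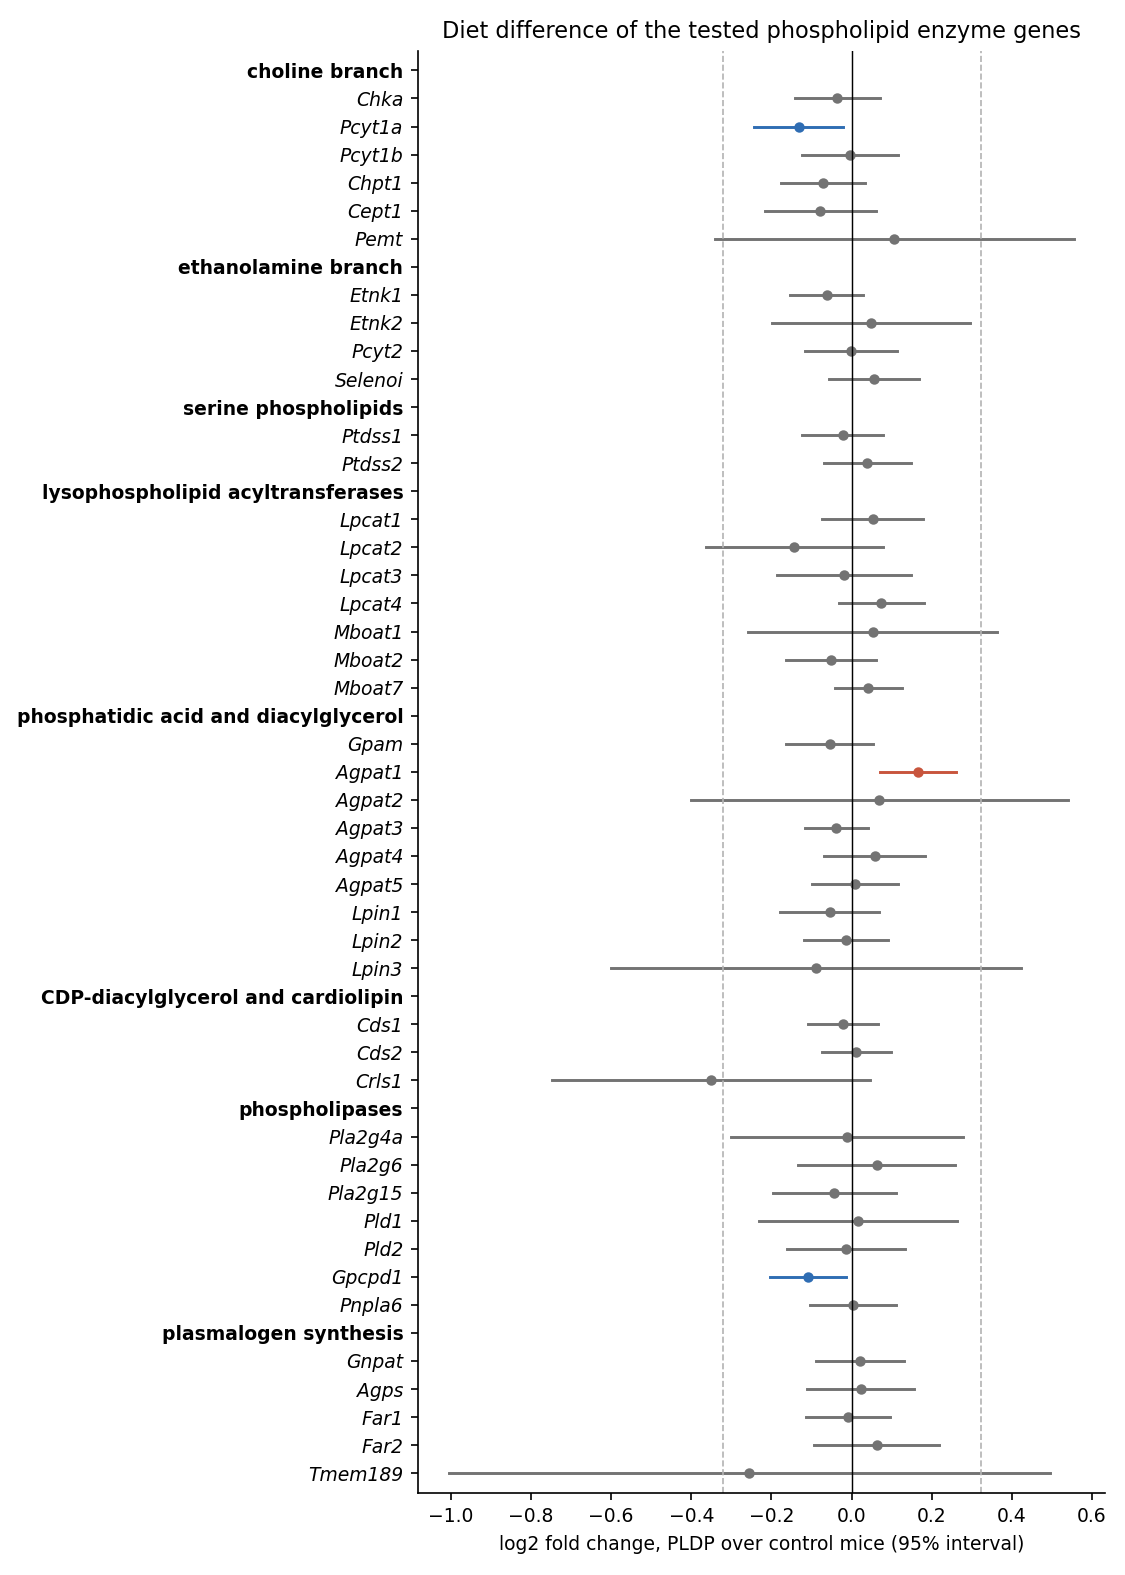
Log2 fold change of PLDP over control mice for the 43 tested genes, by pathway group, with points for the estimates and bars for 95% intervals from edgeR (3 mice per diet). Dashed lines mark 1.25-fold in each direction, and color marks the genes with an unadjusted p under 0.05, red for Agpat1 and blue for Pcyt1a and Gpcpd1. Intervals of 36 genes stay inside the dashed lines.

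In 5 of the 43 tested genes (11.6%) the values of the diets, 3 mice each, did not overlap, against 14.2% of all features tested. Agpat1 and Mboat7 were higher in this way, and Pcyt1a, Gpcpd1 and Agpat3 lower. An exact permutation test on 1 gene, two-sided, can reach no p lower than 0.1 with 3 mice per diet.

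Agpat1 and Pcyt1a had the smallest p of the genes in each direction, and the 250 bases before the most upstream start that RefSeq lists for each are shown for that reason. Both are on the plus strand of GRCm38.p6, at chr17:34605611-34605860 for Agpat1 and chr16:32430671-32430920 for Pcyt1a, and run 5′ to 3′. The Agpat1 window lies within the gene as GENCODE draws it, in an intron of its longer transcripts, whereas the Pcyt1a window ends at the base before the GENCODE gene. Capitals mark matches on either strand to the GC box GGGCGG, the CCAAT box CCAAT and TCACCCCAC, the core of a sterol regulatory element, letters that were chosen after the promoters had been seen.
Agpat1: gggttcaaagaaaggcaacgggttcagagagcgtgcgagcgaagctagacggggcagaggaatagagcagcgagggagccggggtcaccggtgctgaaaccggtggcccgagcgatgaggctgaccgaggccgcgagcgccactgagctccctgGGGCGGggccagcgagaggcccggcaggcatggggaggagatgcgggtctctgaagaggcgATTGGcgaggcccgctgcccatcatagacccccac
Pcyt1a: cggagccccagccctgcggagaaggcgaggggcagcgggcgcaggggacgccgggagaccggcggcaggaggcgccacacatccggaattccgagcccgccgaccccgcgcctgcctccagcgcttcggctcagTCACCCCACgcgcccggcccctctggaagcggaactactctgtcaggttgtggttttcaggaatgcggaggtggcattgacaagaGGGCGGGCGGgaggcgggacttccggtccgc

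The Agpat1 sequence was 67.6% G and C, with 1 GC box and 1 CCAAT box on the opposite strand. The Pcyt1a sequence was 71.6% G and C, with 2 GC boxes that overlap each other and 1 sterol element core that begins 116 bases before the start. Of 32851 RefSeq promoters of the same length, 32.7% held a GC box, 33.8% a CCAAT box and 0.496% the sterol element core. Promoters were listed for 40 of the 45 enzyme genes, 59 promoters in all, of which 59.3% held a GC box and 42.4% a CCAAT box. The sterol element core was found in 2 of the 59, both of them overlapping windows of Pcyt1a. These matches describe the sequences and were not tested for binding.

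The ester-linked glycerophospholipids are built from phosphatidic acid and diacylglycerol, and the group of enzymes that make these, a group of 9 genes, held the largest called difference among the enzymes. Agpat1 (ENSMUSG00000034254, chr17:34604262-34613449 of GRCm38) encodes a lysophosphatidic acid acyltransferase of the endoplasmic reticulum, which adds the second fatty acid to form phosphatidic acid. It had 98.4, 102.4 and 99.6 CPM in control mice 2, 5 and 10, and 116.3, 108.8 and 112.0 CPM in PLDP mice 17, 22 and 26. Every PLDP mouse was above every control mouse. The means were 100.2 ± 2.06 and 112.4 ± 3.77 CPM (SD, n = 3 mice each), a rise of 12.2% and a log2 fold change of 0.17 ± 0.04 (SE), with unadjusted p = 0.00178 and adjusted p = 0.273 in edgeR. Agpat1 was called in all 15 alternative settings, including those that left out 1 mouse, with adjusted p between 0.133 and 0.788. Exons on the other strand cover 3.37% of its exon bases.

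None of the other 4 acyltransferases of that step was called. Agpat3 and Agpat1 were the most abundant genes of the group per length. Agpat3 had 284.4, 281.6 and 279.7 CPM in the control mice and 278.0, 278.4 and 267.3 CPM in the PLDP mice. Its diets did not overlap, except with upper-quartile factors, and the difference was small, with a log2 fold change of -0.04 (standard error 0.04) and an unadjusted p = 0.327 from the same edgeR test. The estimates for Agpat4 and Agpat5 were 0.06 and 0.01 on the log2 scale. Agpat2, the form best known from adipose tissue, was near the lower end of measurement at 1.57 ± 0.20 and 1.65 ± 0.23 CPM (SD, n = 3 each). Whether Agpat1 differed from these genes in its response was not tested. The summed level of the group per kb of exon was 112.8 to 115.0 CPM per kb in the control and 115.8 to 118.3 CPM per kb in the PLDP mice, and without Agpat1 the sums of the diets overlapped. Sums of CPM not divided by length overlapped also, at 677.3 to 687.5 CPM in the control and 680.7 to 685.5 CPM in the PLDP mice. Gpam, a mitochondrial glycerol-3-phosphate acyltransferase that starts the pathway, had a log2 fold change of -0.05, with an interval from -0.16 to 0.05. The lipins, which convert phosphatidic acid to diacylglycerol, had log2 fold changes of -0.05 for Lpin1, -0.01 for Lpin2 and -0.09 for Lpin3.

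**Figure D2:**
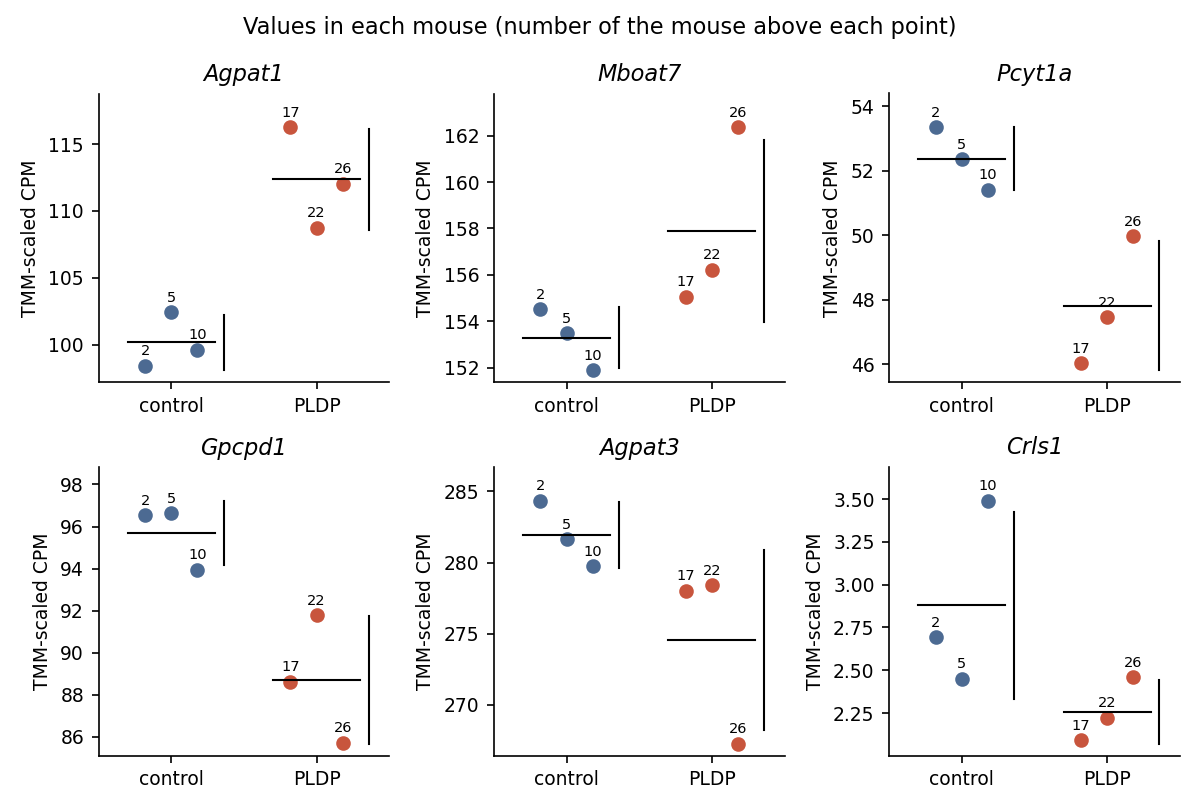
TMM-scaled CPM (vertical axes, which do not start at 0) in each of the 3 control and 3 PLDP mice for the 5 genes whose diets did not overlap and for Crls1, the gene with the largest estimated difference. Horizontal lines are means and vertical bars span 1 SD on either side. Agpat1 lay between 98.4 and 102.4 in the control mice and between 108.8 and 116.3 in the PLDP mice, and the values of Crls1 overlapped.

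In the choline branch, 1 gene was called, and it encodes the enzyme regarded as setting the pace of phosphatidylcholine synthesis. Pcyt1a (ENSMUSG00000005615, chr16:32430921-32475070 of GRCm38) encodes CCT-alpha, which activates phosphocholine with CTP. Its values were 53.3, 52.4 and 51.4 CPM in control mice 2, 5 and 10 and 46.0, 47.5 and 50.0 CPM in PLDP mice 17, 22 and 26. No PLDP mouse reached the lowest control mouse, and PLDP mouse 26 came nearest to it. The means of 52.4 ± 0.97 and 47.8 ± 2.00 CPM (SD, n = 3 each) differ by a log2 fold change of -0.13 ± 0.05 (SE), with unadjusted p = 0.0226 and adjusted p = 0.484 in edgeR. Pcyt1a was no longer called without control mouse 2, control mouse 5 or PLDP mouse 17, where the unadjusted p reached 0.0811 in edgeR. Exons on the other strand cover 9.09% of its exon bases. Pcyt1b, its paralog on the X chromosome, had a log2 fold change of -0.01 with an interval from -0.12 to 0.11.

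Of the 6 choline branch genes tested, 5 had lower estimates in the PLDP mice, but only Pcyt1a passed the test. Chka, a choline kinase, had a log2 fold change of -0.04. Chpt1 and Cept1, which join the activated choline to diacylglycerol, had log2 fold changes of -0.07 and -0.08, with unadjusted p = 0.167 and 0.249 from edgeR. Cept1 had 33.2 ± 1.97 and 31.5 ± 1.69 CPM (SD, n = 3 each), and 24.9% of its exon bases lie opposite exons of a gene on the other strand. Pemt, which makes phosphatidylcholine by methylation and is best known from liver, was at 1.74 ± 0.30 CPM in the control and 1.87 ± 0.13 CPM in the PLDP mice (SD, n = 3 each), and its interval, from -0.34 to 0.55, bounds little. Summed over the 7 genes per kb of exon, the branch had a level of 46.6, 47.0 and 46.6 CPM per kb in control mice 2, 5 and 10 and 44.5, 45.0 and 45.3 CPM per kb in PLDP mice 17, 22 and 26. These sums did not overlap, and the PLDP mean was lower by 3.85%. The sums of 3 of the 8 groups, this branch included, did not overlap between the diets. For single features tested the share without overlap was 14.2%. Without Pcyt1a the control mice had 39.4 to 40.0 CPM per kb and the PLDP mice 38.3 to 38.6, again without overlap. This sum was read after the values were known and is a description, with no test.

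Chkb, the second choline kinase, had 6 to 10 reads per mouse and did not pass the filter. Its level was 0.272 to 0.534 CPM over the 6 mice. GENCODE places 50.7% of its exon bases within exons of another gene on the same strand, the protein-coding Gm44502, which itself had 0.084 to 0.145 CPM. How the authors' counting treated reads shared by both is not given in the sources used here, and the part of the overlap in this low level was not tested.

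In the ethanolamine branch none of the 4 genes was called. Etnk1, an ethanolamine kinase, had 375.3, 378.7 and 380.5 CPM in the control mice and 336.9, 377.4 and 372.4 CPM in the PLDP mice, where only PLDP mouse 17 was clearly below the others. Its log2 fold change was -0.06 (standard error 0.04) with an unadjusted p = 0.169 from edgeR. Pcyt2, which activates phosphoethanolamine with CTP, had identical rounded means of 90.5 CPM, with SDs of 2.56 in the control and 6.98 in the PLDP mice (n = 3 each). The estimate for Selenoi, the selenoprotein that completes phosphatidylethanolamine, was 0.06, and for the second kinase Etnk2 it was 0.05. The summed level of the branch was 53.3 to 54.8 CPM per kb in the control mice and 52.5 to 53.2 in the PLDP mice. That narrow separation was lost with upper-quartile factors and with scaling to library size alone.

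Neither of the serine phospholipid genes tested was called, and their values overlapped between the diets. Ptdss1 and Ptdss2 encode the base-exchange enzymes, of which the first works mainly on phosphatidylcholine and the second on phosphatidylethanolamine. Ptdss1 had 68.9 ± 2.35 and 67.9 ± 1.01 CPM and a log2 fold change of -0.02, with an interval from -0.12 to 0.08. Ptdss2 had 51.1 ± 1.69 and 52.5 ± 0.62 CPM (SD, n = 3 mice each for both genes) and an interval from -0.07 to 0.15. Pisd, whose mitochondrial enzyme turns phosphatidylserine into phosphatidylethanolamine, had 2 to 8 reads per mouse and was not tested. In the same libraries Pisd-ps1 and Pisd-ps2, pseudogenes by name, had 69.4 to 86.4 and 30.0 to 36.9 CPM, and 20.9% of the exon bases of Pisd overlapped another gene on its strand. The level of Pisd is therefore uncertain, and the part of these copies in it was not tested.

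Among the 7 lysophospholipid acyltransferases, which put fatty acids back onto lysophospholipids, none was called. Mboat7, which attaches arachidonic acid to lysophosphatidylinositol, had 154.5, 153.5 and 151.9 CPM in control mice 2, 5 and 10 and 155.1, 156.2 and 162.4 CPM in PLDP mice 17, 22 and 26. The diets did not overlap, but PLDP mouse 17 was above control mouse 2 by less than 1 CPM. The log2 fold change was 0.04 (standard error 0.04, unadjusted p = 0.308 from edgeR). Lpcat4, the most abundant of the group per length, had 87.3 ± 4.27 and 91.9 ± 3.94 CPM (SD, n = 3 each), with overlapping values and an unadjusted p = 0.16 from the same test. Lpcat2, known from microglia and other inflammatory cells, had a log2 fold change of -0.14 with an interval from -0.36 to 0.08. Estimates for Lpcat1, Lpcat3, Mboat1 and Mboat2 were between -0.05 and 0.05.

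Cds2 and Cds1, which activate phosphatidic acid with cytidine for phosphatidylinositol and cardiolipin, were 2 of the 5 most abundant enzyme genes per length. Cds2 had 577 ± 12.6 CPM in the control and 582 ± 30.8 CPM in the PLDP mice, and Cds1 had 128 ± 0.68 and 126 ± 2.97 CPM (SD, n = 3 each). Their intervals were -0.07 to 0.10 and -0.11 to 0.07. Crls1, the cardiolipin synthase of mitochondria, had the largest estimate of all the enzymes but few reads, with 2.69, 2.45 and 3.49 CPM in control mice 2, 5 and 10 and 2.09, 2.22 and 2.46 CPM in PLDP mice 17, 22 and 26. PLDP mouse 26 lay just above control mouse 5, so the diets overlapped. The log2 fold change was -0.35 ± 0.19 (SE), with unadjusted p = 0.0799 and adjusted p = 0.631 in edgeR. Crls1 was called only without control mouse 5, with an unadjusted p = 0.0416 in edgeR.

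Of the 7 genes that break phospholipids down, Gpcpd1 was called. Gpcpd1 (ENSMUSG00000027346, chr2:132529082-132587729 of GRCm38) encodes a phosphodiesterase that splits glycerophosphocholine and so returns choline at the end of phosphatidylcholine breakdown. It had 96.5, 96.6 and 93.9 CPM in control mice 2, 5 and 10 and 88.6, 91.8 and 85.7 CPM in PLDP mice 17, 22 and 26. The diets did not overlap here either. Means were 95.7 ± 1.53 and 88.7 ± 3.03 CPM (SD, n = 3 each), and Gpcpd1 fell by 7.31% (log2 fold change -0.11 ± 0.05 SE, with unadjusted p = 0.0287 and adjusted p = 0.513 in edgeR). The call was lost without control mouse 2, control mouse 5 or PLDP mouse 26, with an unadjusted p of up to 0.125 in edgeR. For Pnpla6, the neuropathy target esterase that produces glycerophosphocholine, the means were 66.5 ± 0.66 and 66.6 ± 3.48 CPM (SD, n = 3 each).

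The phospholipases that release fatty acids or head groups differed little. The phospholipases A2 Pla2g4a (cytosolic), Pla2g6 (calcium-independent) and Pla2g15 (lysosomal) had log2 fold changes of -0.01, 0.06 and -0.04. Those of the phospholipases D Pld1 and Pld2 were 0.02 and -0.01. None of these 5 genes had an unadjusted p under 0.5 in edgeR, and the intervals of all of them stayed within 1.25-fold.

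None of the 5 plasmalogen synthesis genes was called. Gnpat and Agps, peroxisomal enzymes of which the first prepares the acylated precursor and the second forms the ether bond, both had a log2 fold change of 0.02, with intervals from -0.09 to 0.13 and from -0.11 to 0.16. Gnpat, the most abundant of them per length, had 55.4 ± 1.74 and 56.2 ± 1.98 CPM (SD, n = 3 each). Far1 and Far2, which supply the fatty alcohols, had log2 fold changes of -0.01 and 0.06, and the means of Far2 were 20.5 ± 1.41 and 21.4 ± 0.71 CPM (SD, n = 3 each). Tmem189, the desaturase that forms the vinyl ether bond, was at 0.61 ± 0.11 CPM in the control and 0.51 ± 0.12 CPM in the PLDP mice (SD, n = 3 each). For Tmem189, 21.3% of the exon bases lie within exons of another gene on its strand, mainly the protein-coding Gm20431 at 0.363 to 0.485 CPM, and the part of this overlap in the low level was not tested.

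Per kb of exon the levels of the 45 genes covered more than 3 orders of magnitude, from 0.033 CPM per kb for Pisd to 63.5 CPM per kb for Cds2. The length used was that of all annotated exons of a gene merged, not that of the transcripts expressed in brain. The order of genes therefore depends in part on the annotation. After Cds2 came Agpat3, Agpat1, Cds1 and Lpcat4, with 35.7, 35.4, 32.2 and 31.8 CPM per kb as means over the 6 mice. The order of Agpat3 and Agpat1 was not the same on both diets. In the control mice Agpat3, at 35.9 to 36.5 CPM per kb, was above Agpat1, at 32.8 to 34.1. In the PLDP mice Agpat3, at 34.3 to 35.7 CPM per kb, was below Agpat1, at 36.2 to 38.7. Cds1 and Lpcat4 overlapped within each diet, with 32.3 to 32.6 and 29.4 to 32.4 CPM per kb in the control mice. In the PLDP mice they had 31.1 to 32.4 and 31.1 to 33.9 CPM per kb. Etnk1 and Pcyt2 followed with 26.2 and 20.8 CPM per kb, above every choline branch gene, of which Cept1 and Chka were the highest with 10.4 and 10.1 CPM per kb. At the lower end, Pisd, Chkb and Tmem189 stood below Lpin3, Pla2g4a and Pld1. The points of the diets overlap for all but 5 of the tested genes in the plot of levels per length.

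**Figure D3:**
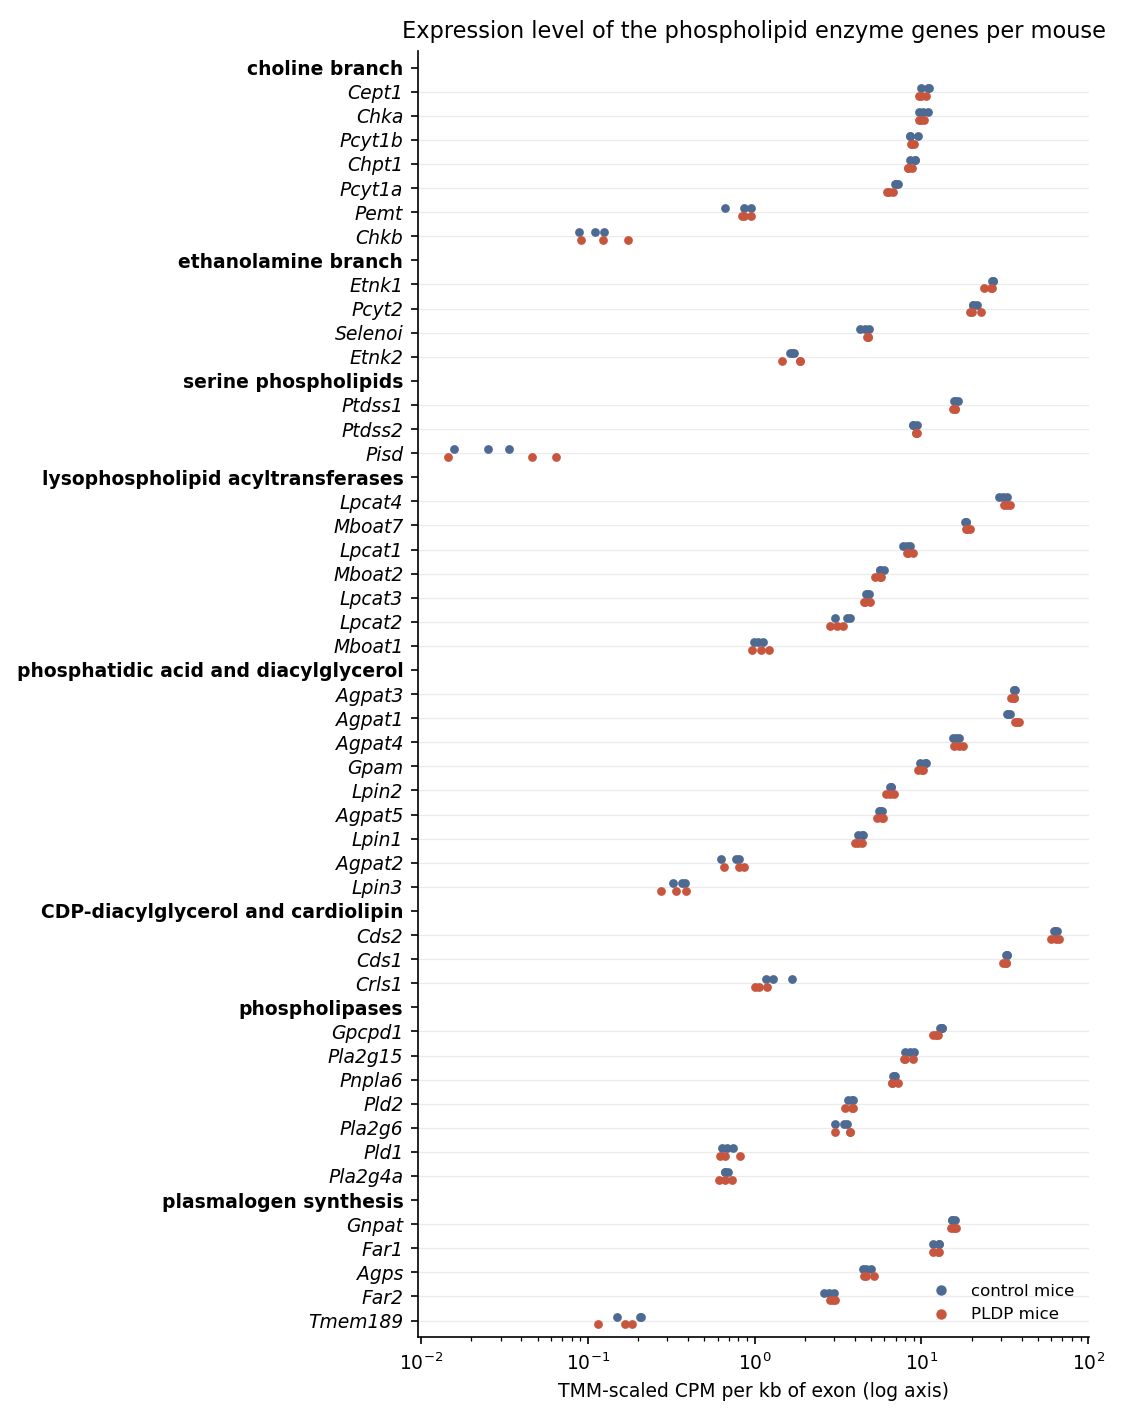
Level of each of the 45 genes in TMM-scaled CPM per kb of exon (log axis), with 1 point per mouse, 3 control and 3 PLDP mice, sorted by mean level within each pathway group. Means run from 0.033 for Pisd to 63.5 for Cds2, and the 6 mice lie close together except for genes with few reads such as Pisd, Chkb and Tmem189, which had at most 15 reads per mouse.

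In none of the 9 pairs compared did the ratios of levels per kb separate the diets. Pcyt1a stood at 0.741 to 0.839 of Pcyt1b in the control mice and at 0.686 to 0.766 in the PLDP mice. Etnk1 was 15.4 to 16.5 times Etnk2 in the control mice and 12.7 to 18.2 times in the PLDP mice. The ratio of Ptdss1 to Ptdss2 was 1.67 to 1.86 over all mice, that of Cds1 to Cds2 0.482 to 0.538, that of Far1 to Far2 4.01 to 4.90, and that of Pld1 to Pld2 0.159 to 0.234.

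The spread between mice on one diet followed the number of reads. For the 30 tested genes with a mean of at least 500 reads, the median coefficient of variation was 3.36% in the control and 4.24% in the PLDP mice. For the other 13 it was 8.18% and 11.3%. PLDP mouse 26 had the lowest value of the 6 mice for 13 of the 43 genes, and PLDP mouse 17 the lowest for 10 and the highest for 10.

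To see whether neighbouring steps differed more, 60 further genes of phospholipid metabolism were counted, of which 56 were tested. By the same threshold 1 was higher and 4 were lower on the PLDP diet, which is 8.93% against the background of 8.60%, and 0 passed an adjusted p of 0.05. Their median log2 fold change was -0.027. Slc5a7, the choline transporter of cholinergic nerve endings, fell from 11.2 ± 0.49 to 7.48 ± 1.30 CPM (SD, n = 3 each), or by 0.60 ± 0.12 (SE) on the log2 scale, with an adjusted p of 0.0785 in edgeR and of 0.000134 to 0.34 over the alternative settings that gave one. Enpp2, which encodes autotaxin, the secreted enzyme that turns lysophosphatidylcholine into lysophosphatidic acid, fell from 509.5 ± 16.1 to 427.7 ± 55.1 CPM (SD, n = 3 each). The values of Enpp2 were 374.1, 484.2 and 424.6 CPM in PLDP mice 17, 22 and 26, a log2 fold change of -0.25 ± 0.06 (SE), with an adjusted p of 0.223 in edgeR and of 3.6e-07 to 0.625 over the alternative settings. Abhd3, a lipase for phosphatidylcholine with medium-chain fatty acids, and Pla2g4e, a cytosolic phospholipase A2, fell with log2 fold changes of -0.14 and -0.26, and Pnpla7, a lysophospholipase related to Pnpla6, rose with one of 0.20. Slc5a7 and Enpp2 were called in all 15 alternative settings, although the log2 fold change of Enpp2 was -0.16 without PLDP mouse 17. Abhd3 was called in 14, all but the one without control mouse 5, and Pla2g4e and Pnpla7 in 10 each. Pla2g4e was lowest in PLDP mouse 26, with 6.57 CPM against 9.35 and 9.01 CPM in PLDP mice 17 and 22 and 9.46 to 10.4 CPM in the control mice, and without mouse 26 its log2 fold change was -0.13 and it was no longer called. The call of Pla2g4e was also lost without control mouse 2 or 5, with upper-quartile factors and with DESeq2. That of Pnpla7 was lost without control mouse 2 or 10, without PLDP mouse 17 or 26, and with DESeq2. The general choline transporters Slc44a1 and Slc44a2 had log2 fold changes of -0.04 and -0.07. Mfsd2a, which carries lysophosphatidylcholine with docosahexaenoic acid across the blood-brain barrier, had a log2 fold change of 0.18 and an unadjusted p = 0.0515 in edgeR. These 3 transporters, none of them called, were picked after their values were seen.

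Marker genes of some tissue parts and cell types were also called in the same libraries, in which 8.60% of all features tested were called in either direction. Of 8 tested hindbrain and spinal cord markers, 7 were called lower on the PLDP diet, and the list's summed level was 145.2 to 158.4 CPM in the control mice and 76.4 to 114.6 CPM in the PLDP mice. Of 10 choroid plexus markers 3 were lower, with sums of 774.4 to 834.7 and 606.9 to 773.6 CPM. Most of each sum came from 1 gene, Ttr, with 679.3 to 728.5 CPM in the control and 535.4 to 669.6 CPM in the PLDP mice. Choroid plexus is a known site of Enpp2, and PLDP mouse 17 had both the lowest Enpp2 and the lowest sum of these markers. Of 10 oligodendrocyte markers 5 were lower, with sums of 5281 to 5666 and 4912 to 5524 CPM. Of 8 endothelial markers 2 were higher, with sums of 213.1 to 221.7 and 217.9 to 238.4 CPM. The sums of 10 astrocyte and 10 neuron markers overlapped between the diets, with 1 gene lower in each list, and those of 8 tested microglia markers overlapped also, again with 1 lower. None of 7 meninges and 5 blood markers was called, and their sums overlapped. The part of these lists in the values of Agpat1, Pcyt1a, Gpcpd1, Slc5a7 and Enpp2 was not tested.

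**Figure D4:**
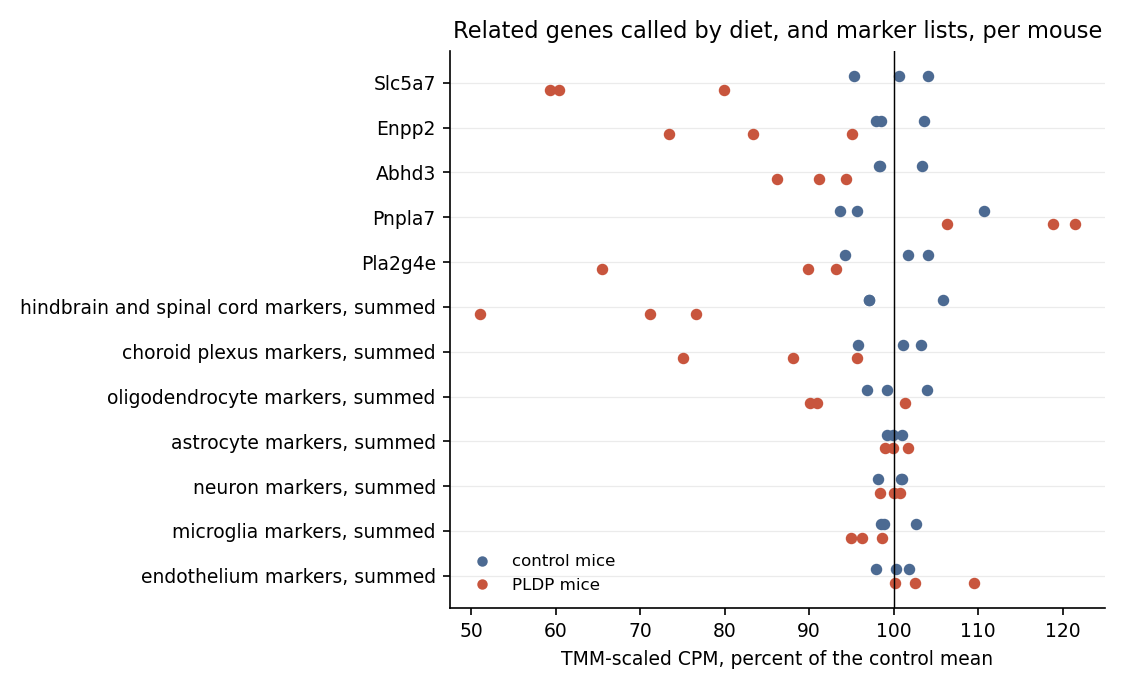
TMM-scaled CPM in percent of the control mean (horizontal axis, which does not start at 0) for the 5 related genes called at an unadjusted p under 0.05 and for the summed levels of 7 marker lists, with 1 point per mouse. Slc5a7 in the PLDP mice lies between 59.3% and 79.9% of the control mean and the hindbrain and spinal cord sum between 51.1% and 76.6%, while neuron and astrocyte sums stay within 2% of it.

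The libraries held between 18797061 and 23938729 counts on features, with similar depth on both diets. At this depth 3 reads correspond to 0.126 to 0.160 CPM, a limit that covers counting error only and that Pisd was near in several mice. Most markers of neurons, astrocytes, oligodendrocytes and microglia were measured well, although the microglia marker Itgam had at most 1 read per mouse. Of 7 liver markers, 5 had too few reads for the test and the list summed to at most 2.50 CPM.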

How the data were processed

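RNA-seq was performed on polyadenylated RNA from the brains of 3 control and 3 PLDP mice with a stranded kit. The authors deposited raw read counts per feature, 1 table per mouse, without normalization. The submitters' processing notes name cutadapt 2.9, HISAT2 2.2.0, featureCounts 2.6.0, DESeq2 1.6.3 and the builds GRCm38 and GRCh38, with no role or order. The annotation and the strand setting are not given in the sources used here, so values of overlapping genes and close copies are uncertain. Symbols, coordinates and exon lengths were taken by Ensembl identifier from GENCODE M21 (GRCm38), which holds 54777 of the 60354 features, and promoters from RefSeq (GRCm38.p6).

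The test was edgeR's quasi-likelihood test (edgeR 4.0.16, R 4.3.3; glmQLFit, glmQLFTest) of diet alone, after filterByExpr (minimum count 10, minimum total 15) and TMM scaling. The study's threshold, unadjusted p under 0.05, defined a call, and Benjamini-Hochberg values over all 18580 features are given beside it. CPM are TMM-scaled. Intervals are approximate 95% intervals from the same fit. Libraries held 18797061 to 23938729 counts, and genes with few reads have wide intervals. Mice were assigned by their labels, 1 mouse being 1 replicate.

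The 15 alternatives were other filters, other scaling factors, DESeq2 1.42.0, edgeR's exact and likelihood ratio tests, limma voom (limma 3.58.1) and leaving out each mouse. The fit was also run on simulated counts with 200 features changed and the same spread set for all features. Those changes were larger than the differences of the enzymes called, so that run does not show whether such differences are recovered. Named genes are those called, those whose diets did not overlap, the gene with the smallest p and the most abundant gene of each group, those the filter removed, and up to 5 called genes of the related list. The remaining enzymes are given more briefly, so that all 45 are accounted for. The enzymes and lists were chosen with earlier results of these data known. Python 3.11.15 with pandas 2.3.3 and matplotlib 3.10.9 read the files and drew the plots.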

Additional observations from a re-analysis of the deposited data

How the results depend on the processing

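No paired analysis was possible because the mouse numbers of the diets are not shared. The number of enzyme genes called was 3 of those tested in each of the 9 settings that changed the filter, the scaling or the test, and these were the same 3 genes. Leaving out 1 mouse gave between 1 and 3, with 1 (Agpat1) without control mouse 2. No enzyme gene passed an adjusted p of 0.05 in any of the 15 settings. Of the 60 related genes, 5 were called, 3 with DESeq2, and between 3 and 9 when 1 mouse was left out (3 without control mouse 2 or control mouse 5, 9 without PLDP mouse 17). Over all features the count fell from 1598 to 926 with DESeq2 (the cause was not tested) and lay between 1133 and 2365 when 1 mouse was left out. The number with an adjusted p under 0.05, 6, was 180 with no filter, 65 with edgeR's exact test, 75 with its likelihood ratio test, 23 with DESeq2, between 1 and 7 in the other settings with all mice, and between 0 and 182 when 1 mouse was left out. The same 5 enzyme genes had no overlap between diets with relative log expression factors and with library size only; with upper-quartile factors 4 of them did, Crls1 taking the place of Agpat3. No scaling moved the median log2 fold change of all features by 0.1. Depth limits the genes under about 12 CPM, and p-values rest on 3 mice per diet.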
